A study of Homo sapiens with 14 samples.

Results

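The genes described here encode the machinery that copies nuclear DNA and fills single-stranded gaps: origin licensing and firing factors, the MCM helicase, the sliding clamp and its loader, the replicative polymerases, flap processing and ligation, replication protein A, nucleotide supply, and the G1/S regulators CCNE1, CCNE2 and E2F1. The list was taken by gene symbol and was chosen with earlier results of these data known. Of its 51 genes, 51 were found among the 25952 genes of the deposited count table. RNA was sequenced from NT2 cells, an established human line of embryonal carcinoma origin that can be induced to differentiate. The 14 libraries form 7 groups of 2: all-trans retinoic acid (RA, the neuron-inducing agent, 10 µM final) for 5, 10 and 21 days, bone morphogenetic protein 2 (BMP2, the muscle-inducing agent) for 5, 10 and 21 days, and cells with no treatment at day 0. The labels name BMP2 at 30 ng/ml for first tests and 40 ng/ml later, and do not give the dose of each library. The groups shared the cell line and the serum-containing medium, renewed every 2 days. The study asked how nucleotide excision repair changes as NT2 cells differentiate. Cultures kept without RA or BMP2 until the later days were not analysed here, so agent and time in culture cannot be told apart against day 0.

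As background, replication starts where the origin recognition complex, CDC6 and CDT1 place the MCM helicase on DNA, and where kinases and the GINS complex then switch it on. A sliding clamp, PCNA, holds the polymerases on the template, and flap nucleases and a ligase join the finished fragments. The clamp, its loader, polymerases delta and epsilon, LIG1 and replication protein A also act in excision repair, where they protect and fill the gap left after a damaged stretch is cut out. Many genes of this machinery are E2F targets and are transcribed mainly in cycling cells.

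Total counts per library lay between 45773278 and 75754396, and the members had between 40 and 51723 counts in a library. CPM below are depth-scaled counts, with each library's size adjusted by its TMM factor. A gene was called changed where its Benjamini-Hochberg adjusted p was under 0.05 in edgeR's quasi-likelihood test, fitted to 19142 genes over the 14 libraries. The labels do not say whether the pair of libraries of a group came from separate cultures, so the p-values measure the spread between these libraries, which may be technical. The BMP2 day 10 libraries stood apart from each other: their log2 CPM correlated with r = 0.918 across the tested genes, against 0.964 to 0.990 in the other groups (genes are not independent replicates). Replicate 1 was most like BMP2 day 5 replicate 2 (r = 0.981), and replicate 2 most like BMP2 day 21 replicate 2 (r = 0.966).

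Marker genes also changed, and the direction differed between the marker lists. The summed level of 5 pluripotency markers (POU5F1, NANOG, LIN28A, SOX2, DPPA4) was 159 and 161 CPM at RA day 21 and 165 and 162 CPM at BMP2 day 21, against 5089 and 5711 CPM in untreated cells. All 5 were called lower at both days. Of 5 neuron markers measured (MAP2, DCX, NEFM, RBFOX3, SYN1), 2 were called higher and 2 lower at RA day 21, and the sum of the 5 was 507 and 544 CPM there against 118 and 93.9 CPM in untreated cells. NEFM made up 358 and 359 CPM of that sum, against 32.0 and 28.4 CPM in untreated cells. RBFOX3, a marker of mature neurons, had 0.717 and 0.566 CPM at RA day 21 and 12.8 and 9.62 CPM in untreated cells. Of 5 smooth muscle markers (ACTA2, CNN1, TAGLN, MYH11, MYOCD) 3 were called higher at BMP2 day 21. The sum of the 5 was 485 and 338 CPM there against 35.3 and 88.8 CPM in untreated cells. TAGLN, which was not called, made up 316 and 202 CPM of that sum, against 29.3 and 84.0 CPM in untreated cells. MYH11, also not called, had 0.78 and 0.693 CPM at BMP2 day 21 against 1.46 and 0.974 CPM in untreated cells. The 4 cardiac muscle markers TNNT2, MYH6, MYH7 and ACTN2 summed to 231 and 196 CPM at BMP2 day 21 against 26.8 and 64.2 CPM in untreated cells, with TNNT2 called higher and MYH7 lower. TNNT2 made up 204 and 172 CPM of that sum, against 3.77 and 10.8 CPM in untreated cells. The 3 skeletal muscle markers MYOD1, MYOG and CKM summed to between 0 and 2.17 CPM in every library. The 3 proliferation markers MKI67, TOP2A and CDK1 were called lower at both day 21 groups, with a sum of 459 and 403 CPM at RA day 21 and 269 and 142 CPM at BMP2 day 21, against 1735 and 1374 CPM in untreated cells. In bulk RNA, fewer cycling cells and less RNA of these genes per cell cannot be told apart, and the part of any marker in the values below was not tested.

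Nearly the whole replication set was lower after 21 days of either agent, and the BMP2 cultures were lower sooner. The summed CPM of the 51 genes was 88.6% and 92.2% of the untreated mean in the RA day 5 libraries, 59.5% and 64.0% at RA day 10, and 29.4% and 28.2% at RA day 21. It was 61.7% and 45.7% at BMP2 day 5, 49.9% and 28% at BMP2 day 10, and 27.5% and 21.0% at BMP2 day 21. BMP2 day 5 replicate 2 was below both RA day 10 libraries and replicate 1 lay between them. BMP2 day 10 replicate 2 was level with the day 21 libraries.

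**Figure D1:**
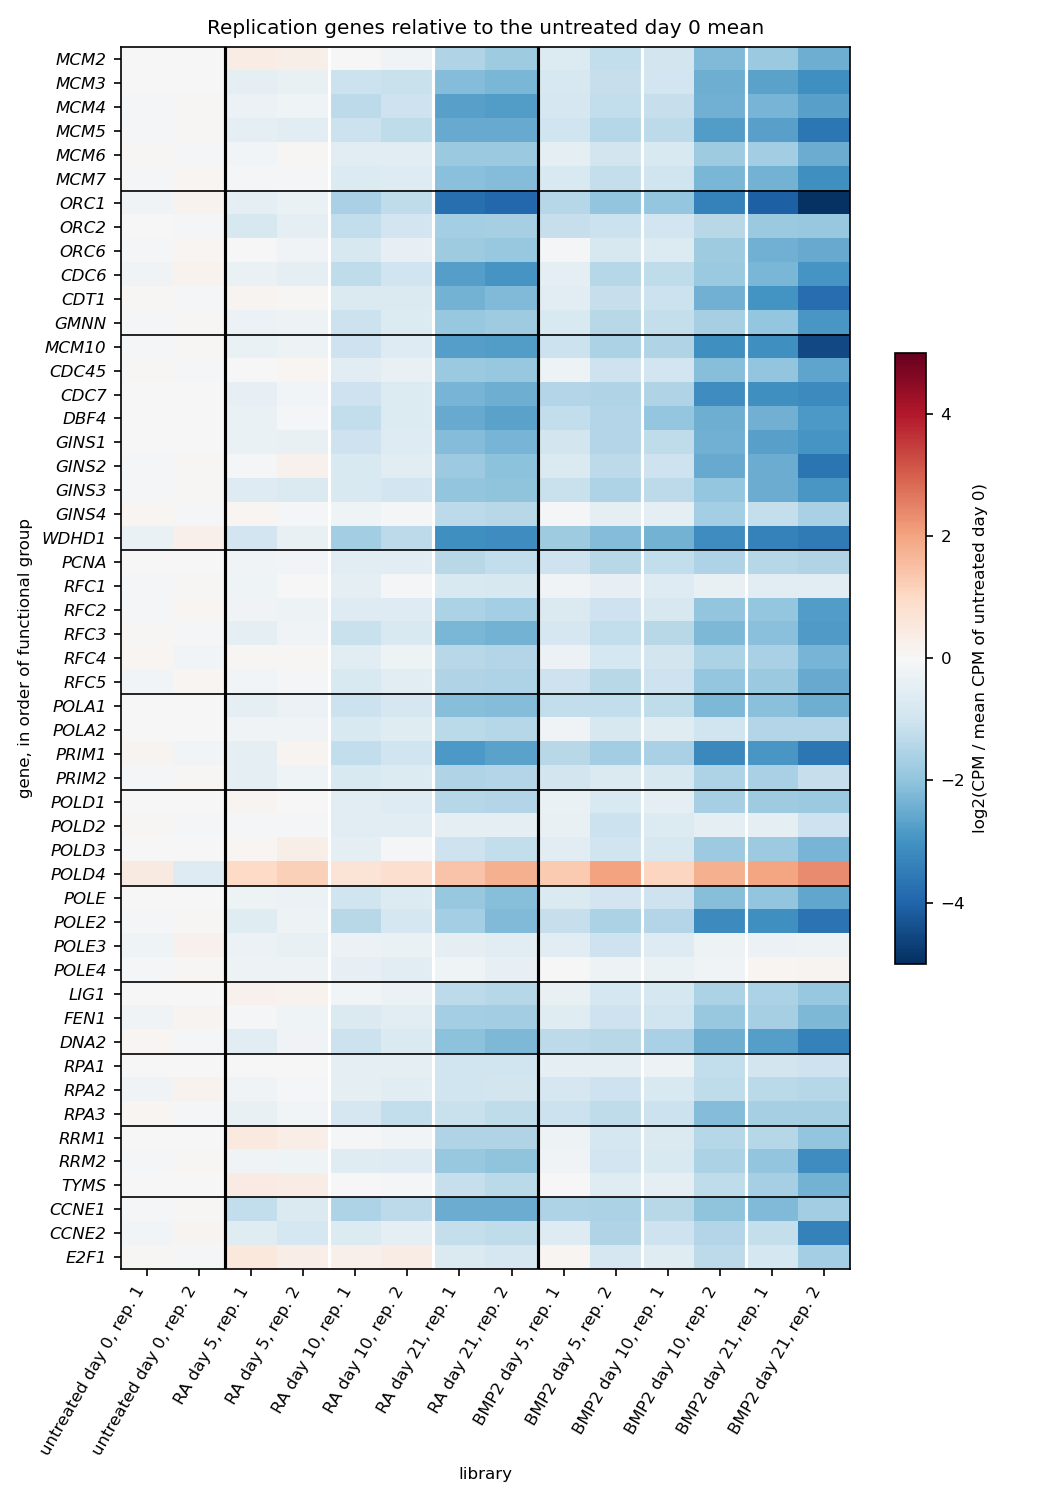
Level of each of the 51 genes (rows, in order of function) in each of the 14 libraries (columns), as log2 of the CPM over the mean CPM of the untreated day 0 libraries. Blue marks lower and red higher: both RA day 21 columns and both BMP2 day 21 columns are blue in most rows, the row of POLD4 is red, and BMP2 day 10 replicate 1 is paler than replicate 2.

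The counts of calls followed the same course. At RA day 5, CCNE1 was the 1 member called, and it was lower, where 8.31% of all tested genes were called, 5.59% higher and 2.72% lower. At RA day 10, 12 of 51 members were called lower and 0 higher, where 11.1% of all genes were called lower and 12.9% higher. At RA day 21, 45 members were called lower and 1 higher, where 21.1% of all genes were called lower and 23.4% higher. The median log2 fold change of the members was -0.21 at day 5, -0.65 at day 10 and -1.83 at day 21 of RA, and that of all tested genes was at most 0.10 in size. At BMP2 day 5, 21 members were called lower and 1 higher, where 13.4% of all genes were called lower and 15.9% higher. At BMP2 day 10 the members gave 43 lower and 1 higher, against 16.4% lower and 19.8% higher among all genes. At BMP2 day 21, 48 were called lower and 1 higher, where 22.1% of all genes were called lower and 25.0% higher. The median of the members was -0.93 at day 5, -1.39 at day 10 and -2.15 at day 21 of BMP2. Counts of members whose libraries did not overlap the untreated pair were larger than the counts of calls. Both libraries lay below both untreated libraries for 29 members at RA day 5, 48 at RA day 10 and 50 at RA day 21, where 30.9%, 33.8% and 38.1% of all tested genes did so. They lay above for 8, 2 and 1 members, where 29.9%, 35.6% and 44.4% of all genes did so at RA days 5, 10 and 21. In BMP2 libraries 46 members lay below at day 5, 50 at day 10 and 49 at day 21, where 34.9%, 32.2% and 37.6% of all genes did so. They lay above for 1, 1 and 2 members, where 34.3%, 31.3% and 40.0% of all genes did so at BMP2 days 5, 10 and 21. The 6 comparisons share the untreated libraries. The 1 member called higher at RA day 21 and at each BMP2 day was POLD4.

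The day 21 counts held in every refit that left out 1 library, with 38 to 47 of 51 members called for RA and 43 to 49 for BMP2. The smaller counts moved with single libraries. The 12 members at RA day 10 became 3 or 2 without untreated replicate 1 or 2, 5 without RA day 5 replicate 2, 2 or 4 without RA day 10 replicate 1 or 2, and 4 without either RA day 21 library. They became 29 without either BMP2 day 10 library. ORC2 and CCNE1 were called at RA day 10 in all 22 settings run. The 22 members at BMP2 day 5 became 6 without BMP2 day 5 replicate 2, 13 or 9 without untreated replicate 1 or 2, and 39 without either BMP2 day 10 library; ORC2, DBF4, WDHD1, PCNA, RPA2 and CCNE1 kept the call in all 22 settings. The 44 members at BMP2 day 10 were 46 without its replicate 1, 32 without its replicate 2 and 28 without untreated replicate 2. With only the 4 libraries of that comparison fitted, 3 were called. DBF4, WDHD1 and PCNA were called at BMP2 day 10 in all 21 settings run.

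The MCM helicase unwinds the template as a ring of the 6 proteins MCM2 to MCM7. All 6 genes were called lower at RA day 21 (median log2 fold change -2.18) and all 6 at BMP2 day 21 (-2.59). The summed CPM of the 6 was 22.6% and 21.1% of the untreated mean at RA day 21 and 21.3% and 14.3% at BMP2 day 21. MCM2 (ENSG00000073111) had 309 and 315 CPM in untreated cells, 405 and 385 at RA day 5, 304 and 275 at RA day 10 and 109 and 92.0 at RA day 21. Both RA day 5 libraries were above both untreated libraries, the day 10 libraries were below them, and the day 21 libraries were lowest. MCM2 had 194 and 134 CPM at BMP2 day 5, 163 and 67.6 at BMP2 day 10 and 85.3 and 57.1 at BMP2 day 21. Every BMP2 library lay below the untreated libraries. MCM2 had a log2 fold change of -1.64 ± 0.36 (SE, edgeR adjusted p = 0.0048) at RA day 21 and -2.13 ± 0.37 (SE, edgeR adjusted p = 0.0011) at BMP2 day 21. MCM5 had 169 and 182 CPM in untreated cells, 125 and 123 at RA day 5, 82.9 and 72.3 at RA day 10 and 30.8 and 31.0 at RA day 21. Each day was lower than the one before, without overlap. It had 87.8 and 65.7 CPM at BMP2 day 5, 71.5 and 25.4 at BMP2 day 10 and 26.6 and 14.5 at BMP2 day 21, and its log2 fold change at BMP2 day 21 was -3.09 ± 0.44 (SE, edgeR adjusted p = 0.00044). The other 4 genes had mean CPM between 15.0% (MCM4) and 27.7% (MCM6) of the untreated mean at RA day 21. At BMP2 day 21 they were between 13.9% (MCM3) and 24.1% (MCM6).

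The MCM genes and E2F1 are textbook E2F targets. Promoters are shown for the members with the most E2F motif matches, among them 3 of the MCM genes. RefSeq promoter windows on GRCh38.p14, 250 bases before to 50 after the start of the gene, were found for 43 of the 51 members, among them MCM2, MCM3, MCM6 and MCM7. The E2F motif was searched as TTTCCCGC, TTTCGCGC, TTTGCCGC or TTTGGCGC on either strand, with overlapping matches counted. It was present in 19 of the 43 (44.2%) and in 3.31% of all 35116 promoters of the same length; among the 13529 tested genes with a window it was present in 4.69%. At least 2 matches were found in 5 members (11.6%), MCM6, MCM2, MCM3, MCM7 and E2F1, and in 0.145% of all promoters. The motif CCAAT, on either strand, was in 24 of the 43 (55.8%) and in 34.6% of all promoters. The 5 promoters below are the 4 with the most matches, with ties taken in order of symbol, and that of POLD2, a member with no match that was not called at RA day 21. Each is written 5′ to 3′ on the strand of the gene, with the E2F matches in capitals.
MCM6: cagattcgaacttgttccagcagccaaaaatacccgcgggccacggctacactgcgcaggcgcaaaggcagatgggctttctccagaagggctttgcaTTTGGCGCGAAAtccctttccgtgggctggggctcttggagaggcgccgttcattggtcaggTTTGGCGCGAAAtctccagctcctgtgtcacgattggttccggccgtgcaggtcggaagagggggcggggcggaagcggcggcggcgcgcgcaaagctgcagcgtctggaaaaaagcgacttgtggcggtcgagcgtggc
E2F1: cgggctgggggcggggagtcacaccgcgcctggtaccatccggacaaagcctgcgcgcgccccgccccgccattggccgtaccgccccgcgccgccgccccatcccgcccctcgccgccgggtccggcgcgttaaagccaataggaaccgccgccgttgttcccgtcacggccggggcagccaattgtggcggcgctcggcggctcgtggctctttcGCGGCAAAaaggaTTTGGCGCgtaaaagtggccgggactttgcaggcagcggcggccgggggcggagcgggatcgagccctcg
MCM2: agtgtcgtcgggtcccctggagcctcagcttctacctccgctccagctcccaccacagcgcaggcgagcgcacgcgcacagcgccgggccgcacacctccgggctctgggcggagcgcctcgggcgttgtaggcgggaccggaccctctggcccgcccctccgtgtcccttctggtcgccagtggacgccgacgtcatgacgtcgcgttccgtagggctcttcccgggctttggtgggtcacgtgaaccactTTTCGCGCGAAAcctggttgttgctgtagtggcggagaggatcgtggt
MCM3: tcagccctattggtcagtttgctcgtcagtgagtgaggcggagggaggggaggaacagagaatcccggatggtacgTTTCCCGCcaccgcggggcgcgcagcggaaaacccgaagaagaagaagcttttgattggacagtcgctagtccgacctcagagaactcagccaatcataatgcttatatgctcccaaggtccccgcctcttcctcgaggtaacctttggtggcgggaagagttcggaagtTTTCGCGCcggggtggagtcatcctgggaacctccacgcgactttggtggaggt
POLD2: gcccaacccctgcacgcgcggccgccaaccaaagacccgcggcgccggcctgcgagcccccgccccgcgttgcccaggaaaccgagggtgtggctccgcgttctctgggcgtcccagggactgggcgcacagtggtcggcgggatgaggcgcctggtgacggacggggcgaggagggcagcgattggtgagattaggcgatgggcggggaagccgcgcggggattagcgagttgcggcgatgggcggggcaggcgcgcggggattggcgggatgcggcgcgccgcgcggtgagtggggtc
They are MCM6 at chr2:135876394-135876693 (minus strand), E2F1 at chr20:33686336-33686635 (minus), MCM2 at chr3:127598161-127598460 (plus), MCM3 at chr6:52284693-52284992 (minus) and POLD2 at chr7:44123499-44123798 (minus). MCM6 holds 4 matches, as a pair of capital runs in which a match on one strand overlaps a match on the other; MCM2 holds 1 such run. E2F1 and MCM3 each hold a pair of separate matches. The members' changes differed little by number of matches, and this was not tested. The median log2 fold change was -1.85 at RA day 21 and -2.13 at BMP2 day 21 for the 5 members with 2 or more matches. It was -1.96 at RA day 21 and -2.33 at BMP2 day 21 for the 14 with 1 match, and -1.70 at RA day 21 and -2.05 at BMP2 day 21 for the 24 with none. POLE4, which was not called at day 21, holds 1 match. A match describes letters in the window and not binding.

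Origin recognition and licensing holds the member that was lowest of all, ORC1. All 6 genes of the group were called lower at both day 21 groups, with medians of -2.05 for RA and -2.53 for BMP2. ORC1 (ENSG00000085840), the largest subunit of the origin recognition complex, had 160.4 and 203 CPM in untreated cells, 128 and 145 at RA day 5, 59.2 and 74.5 at RA day 10 and 13.3 and 11.8 at RA day 21. The course was downward at every step without overlap. It had 67.4 and 46.2 CPM at BMP2 day 5, 47.9 and 17.4 at BMP2 day 10 and 10.8 and 5.86 at BMP2 day 21, so that its log2 fold change was -4.45 ± 0.49 (SE, edgeR adjusted p = 0.00014) at BMP2 day 21 and -3.86 ± 0.47 (SE, edgeR adjusted p = 0.00025) at RA day 21, the lowest of the 51 in both. ORC2, another subunit, changed least of the 6 at day 21, though not at day 5 or day 10 of either agent. It had 113 and 107 CPM in untreated cells, 64.0 and 79.2 at RA day 5, 47.2 and 57.0 at RA day 10 and 34.2 and 34.5 at RA day 21, and 49.5 and 51.9 CPM at BMP2 day 5, 57.0 and 41.7 at BMP2 day 10 and 30.6 and 29.5 at BMP2 day 21. Every treated library was below both untreated libraries. ORC2 had a log2 fold change of -1.68 ± 0.18 (SE, edgeR adjusted p = 0.00015) at RA day 21 and -1.87 ± 0.18 (SE, edgeR adjusted p = 9.2e-05) at BMP2 day 21. As a share of the untreated mean CPM, ORC6 was at 28% at RA day 21 and 18.1% at BMP2 day 21. CDC6, which loads the helicase with CDT1, was at 13.9% at RA day 21 and 16.6% at BMP2 day 21. CDT1 was at 20.7% at RA day 21 and 9.85% at BMP2 day 21, and geminin (GMNN), the inhibitor of CDT1, at 28.2% at RA day 21 and 19.6% at BMP2 day 21. The gene for the inhibitor was lower together with that of its target.

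The origin firing group turns the loaded helicase into the active CDC45-MCM-GINS complex. All 9 genes were called lower at both day 21 groups, with medians of -2.24 for RA and -2.81 for BMP2. WDHD1 (ENSG00000198554), which couples the helicase to polymerase alpha, had 179.6 and 267 CPM in untreated cells, 115 and 173 at RA day 5, 67.8 and 91.2 at RA day 10 and 26.3 and 25.8 at RA day 21. It had 64.8 and 49.5 CPM at BMP2 day 5, 43.8 and 25.8 at BMP2 day 10 and 21.2 and 19.4 at BMP2 day 21. The untreated libraries were the highest pair and the day 21 libraries the lowest in each treatment, and every treated library was below them. WDHD1 had a log2 fold change of -3.10 ± 0.33 (SE, edgeR adjusted p = 0.00014) at RA day 21 and -3.46 ± 0.33 (SE, edgeR adjusted p = 8.6e-05) at BMP2 day 21. DBF4, the activating subunit of the CDC7 kinase that triggers firing, had 136 and 135 CPM in untreated cells, 108 and 126 at RA day 5, 57.9 and 85.2 at RA day 10 and 23.5 and 21.0 at RA day 21. The BMP2 libraries of DBF4 had 57.4 and 49.2 CPM at BMP2 day 5, 35.1 and 25.0 at BMP2 day 10 and 25.6 and 18.7 at BMP2 day 21. They were already below the RA day 10 pair at day 5, and the day 21 groups overlapped. As a share of the untreated mean CPM, CDC7 itself was at 19.4% at RA day 21 and 11.5% at BMP2 day 21. MCM10, which helps activate the helicase, was at 14.7% at RA day 21 and 8.24% at BMP2 day 21, and CDC45, a part of the active helicase, at 27.4% at RA day 21 and 20.8% at BMP2 day 21.

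Among the 4 GINS subunits, GINS4 had the change nearest to 0 at both day 21 groups. GINS1 was at 21.1% at RA day 21 and 14.2% at BMP2 day 21 as a share of the untreated mean CPM, GINS2 at 26.3% at RA day 21 and 13.0% at BMP2 day 21, and GINS3 at 25.2% at RA day 21 and 15.5% at BMP2 day 21. GINS4, a subunit of the same complex, had 54.2 and 47.0 CPM in untreated cells, 54.2 and 47.5 at RA day 5, 43.2 and 46.8 at RA day 10 and 20.5 and 19.2 at RA day 21. It had 48.3 and 37.2 CPM at BMP2 day 5, 36.2 and 15.4 at BMP2 day 10 and 22.0 and 16.3 at BMP2 day 21. Both RA day 5 libraries and BMP2 day 5 replicate 1 were within the range of the untreated pair, and all day 21 libraries were below it. GINS4 had a log2 fold change of -1.35 ± 0.33 (SE, edgeR adjusted p = 0.0088) at RA day 21 and -1.40 ± 0.34 (SE, edgeR adjusted p = 0.0067) at BMP2 day 21. The RA call was lost without either RA day 21 library, and the BMP2 call without BMP2 day 21 replicate 2. The RA day 21 call of GINS2, a log2 fold change of -1.93 ± 0.48 (SE, edgeR adjusted p = 0.0087), was lost without RA day 21 replicate 2.

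**Figure D2:**
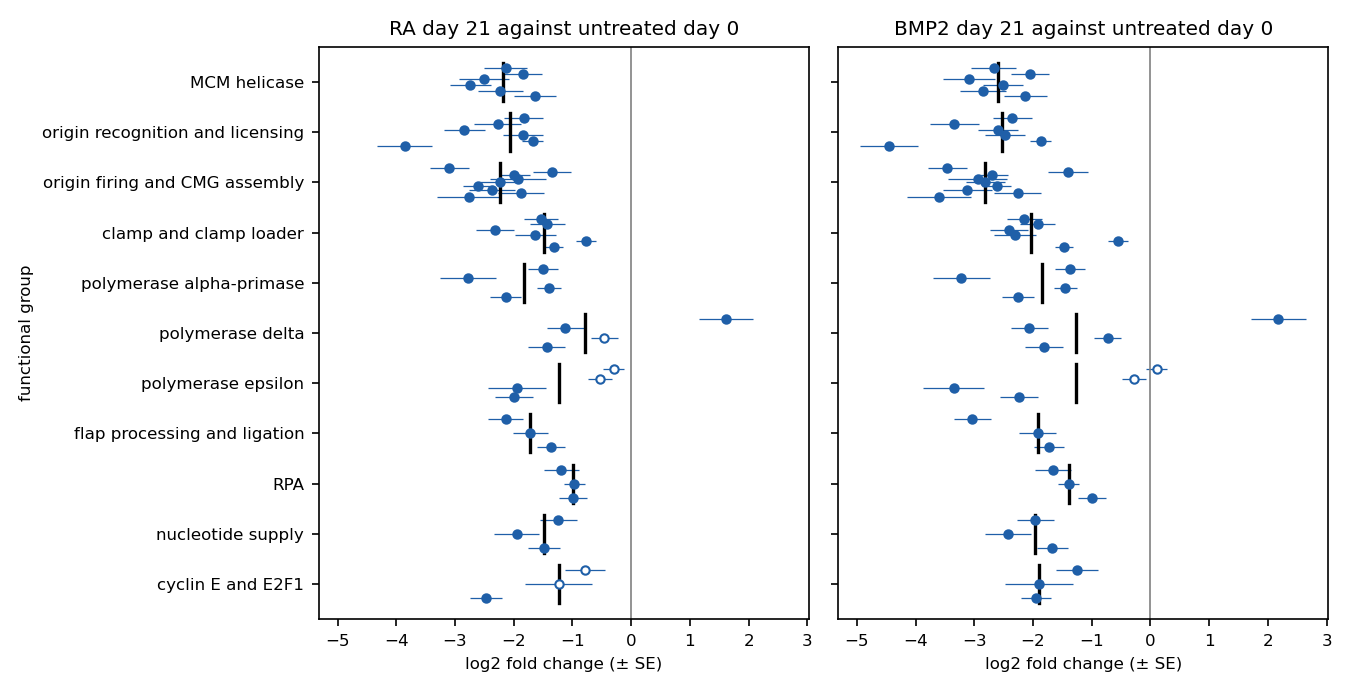
Log2 fold change of each of the 51 genes at RA day 21 (left) and BMP2 day 21 (right) against untreated day 0, by functional group, with the standard error as a line and the group median as a black bar. Filled circles were called by edgeR and open circles were not: 46 of 51 are filled for RA and 49 of 51 for BMP2, and the medians of polymerases delta and epsilon and of RPA lie closer to 0 than those of the helicase and origin groups.

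PCNA, the sliding clamp, and the 5 subunits of its loader, replication factor C, were called lower at both day 21 groups (6 of 6 each; medians -1.48 for RA and -2.03 for BMP2). PCNA (ENSG00000132646) had 305 and 303 CPM in untreated cells, 267 and 277 at RA day 5, 203 and 211 at RA day 10 and 115 and 128 at RA day 21. The RA groups did not overlap each other or the untreated pair. PCNA had 150.1 and 117 CPM at BMP2 day 5, 131 and 103 at BMP2 day 10 and 113 and 107 at BMP2 day 21. All 6 BMP2 libraries lay below the RA day 10 pair, already at day 5. Its log2 fold change was -1.32 ± 0.16 (SE, edgeR adjusted p = 0.00025) at RA day 21 and -1.47 ± 0.16 (SE, edgeR adjusted p = 0.00014) at BMP2 day 21. RFC1, the large loader subunit, had 119 and 132 CPM in untreated cells, 107 and 123 at RA day 5, 92.1 and 118 at RA day 10 and 74.0 and 72.9 at RA day 21. It had 112 and 94.9 CPM at BMP2 day 5, 80.2 and 96.8 at BMP2 day 10 and 87.0 and 83.7 at BMP2 day 21. Every treated library was below the untreated pair except RA day 5 replicate 2, which lay between them. RFC1 had a log2 fold change of -0.77 ± 0.17 (SE, edgeR adjusted p = 0.0044) at RA day 21 and -0.55 ± 0.17 (SE, edgeR adjusted p = 0.02) at BMP2 day 21, and the BMP2 call was lost without untreated replicate 2 or either BMP2 day 21 library.

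RFC3 is one of the 4 small subunits that also serve in other clamp loaders. It had 124 and 116 CPM in untreated cells, 88.0 and 105 at RA day 5, 54.9 and 71.5 at RA day 10 and 24.9 and 23.2 at RA day 21. It had 67.9 and 51.6 CPM at BMP2 day 5, 46.2 and 25.5 at BMP2 day 10 and 28.2 and 16.9 at BMP2 day 21. All treated libraries were below the untreated pair. RFC3 had a log2 fold change of -2.32 ± 0.32 (SE, edgeR adjusted p = 0.00044) at RA day 21 and -2.41 ± 0.32 (SE, edgeR adjusted p = 0.00032) at BMP2 day 21. RFC5 had 67.1 and 79.4 CPM in untreated cells, 66.0 and 69.8 at RA day 5, 43.0 and 50.6 at RA day 10 and 25.8 and 24.8 at RA day 21, and 35.6 and 28.1 CPM at BMP2 day 5, 35.3 and 19.3 at BMP2 day 10 and 20.2 and 12.9 at BMP2 day 21. Both day 21 groups were below the untreated pair without overlap. As a share of the untreated mean CPM, the other small subunits were at 32.3% at RA day 21 and 20.2% at BMP2 day 21 (RFC2) and at 37.0% at RA day 21 and 26.5% at BMP2 day 21 (RFC4).

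Polymerase alpha-primase starts each new strand with a short primer. Its 4 genes were called lower at both day 21 groups, with medians of -1.82 for RA and -1.85 for BMP2. PRIM1, the catalytic primase subunit, had 70.0 and 58.5 CPM in untreated cells, 45.8 and 70.2 at RA day 5, 27.4 and 32.0 at RA day 10 and 8.74 and 10.0 at RA day 21. RA day 5 replicate 2 was level with the higher untreated library, and the later groups were below both. It had 24.9 and 19.3 CPM at BMP2 day 5, 21.0 and 6.84 at BMP2 day 10 and 8.58 and 5.23 at BMP2 day 21, and its log2 fold change was -2.78 ± 0.47 (SE, edgeR adjusted p = 0.0012) at RA day 21 and -3.22 ± 0.48 (SE, edgeR adjusted p = 0.00056) at BMP2 day 21. POLA2, the accessory subunit of the polymerase, had 119.9 and 125 CPM in untreated cells, 107 and 108 at RA day 5, 71.5 and 80.9 at RA day 10 and 47.6 and 45.1 at RA day 21. It had 108 and 70.7 CPM at BMP2 day 5, 79.5 and 61.8 at BMP2 day 10 and 44.8 and 44.6 at BMP2 day 21. The day 21 libraries of both treatments lay within 44.6 to 47.6 CPM, with a log2 fold change of -1.40 ± 0.20 (SE, edgeR adjusted p = 0.00052) for RA and -1.45 ± 0.20 (SE, edgeR adjusted p = 0.00038) for BMP2. As a share of the untreated mean CPM, POLA1, the catalytic polymerase subunit, was at 22.8% at RA day 21 and 21.0% at BMP2 day 21, and PRIM2, the large primase subunit, at 35.3% at RA day 21 and 38.8% at BMP2 day 21.

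The subunits of polymerase delta, which extends the lagging strand and fills repair gaps, went different ways. At RA day 21, 2 of 4 were called lower and 1 higher; at BMP2 day 21, 3 were called lower and 1 higher. POLD1, the catalytic subunit, had 74.5 and 73.4 CPM in untreated cells, 80.3 and 73.8 at RA day 5, 51.4 and 47.0 at RA day 10 and 27.5 and 26.9 at RA day 21. RA day 5 overlapped the untreated pair, and day 10 and day 21 were below it. It had 58.0 and 44.0 CPM at BMP2 day 5, 54.1 and 23.1 at BMP2 day 10 and 21.6 and 20.5 at BMP2 day 21, and its log2 fold change was -1.44 ± 0.31 (SE, edgeR adjusted p = 0.0046) at RA day 21 and -1.81 ± 0.32 (SE, edgeR adjusted p = 0.0013) at BMP2 day 21. POLD3, which binds PCNA, averaged 45.9% at RA day 21 and 24.0% at BMP2 day 21 as a share of the untreated mean CPM. The RA day 21 call of POLD3, a log2 fold change of -1.12 ± 0.31 (SE, edgeR adjusted p = 0.014), was lost without either untreated or either RA day 21 library.

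POLD2, the subunit that holds POLD1 and POLD3 together, had 145 and 137 CPM in untreated cells, 132 and 131 at RA day 5, 96.8 and 95.6 at RA day 10 and 104 and 101 at RA day 21. It had 108 and 67.7 CPM at BMP2 day 5, 86.7 and 99.5 at BMP2 day 10 and 101 and 68.2 at BMP2 day 21. All treated libraries were below the untreated pair, and day 21 was no lower than day 10 in the RA libraries. POLD2 had a log2 fold change of -0.46 ± 0.23 (SE, edgeR adjusted p = 0.13) at RA day 21, which was not called, and -0.73 ± 0.23 (SE, edgeR adjusted p = 0.024) at BMP2 day 21, a call lost without either untreated library or BMP2 day 21 replicate 2. POLD4 (ENSG00000175482), the smallest subunit, had 1.2 and 0.557 CPM in untreated cells, 1.77 and 1.98 at RA day 5, 1.43 and 1.56 at RA day 10 and 2.39 and 2.99 at RA day 21. It had 2.17 and 3.52 CPM at BMP2 day 5, 1.86 and 3.0 at BMP2 day 10 and 3.41 and 4.53 at BMP2 day 21. Every treated library was above both untreated libraries, at a low level. POLD4 had a log2 fold change of 1.62 ± 0.46 (SE, edgeR adjusted p = 0.017) at RA day 21 and 2.18 ± 0.47 (SE, edgeR adjusted p = 0.0038) at BMP2 day 21, and the RA call was lost without untreated replicate 2 or RA day 21 replicate 2. The whole span of POLD4 overlaps another gene in the GENCODE v29 annotation, RAD9A on the opposite strand, and no source used here says whether counting used strand, so reads of the pair cannot be told apart. RAD9A had 12.2 and 11.9 CPM at RA day 21 and 9.03 and 7.52 CPM at BMP2 day 21, against 14.7 and 13.4 CPM in untreated cells. Its log2 fold change was -0.22 ± 0.20 (SE, edgeR adjusted p = 0.38) at RA day 21, which was not called. At BMP2 day 21 it was -0.76 ± 0.20 (SE, edgeR adjusted p = 0.01). The part of RAD9A reads in the POLD4 values was not tested.

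Polymerase epsilon, the leading strand polymerase, fell in part. The catalytic subunit POLE and its partner POLE2 were called lower at both day 21 groups. The histone-fold subunits POLE3 and POLE4 were called at neither, but POLE3 was the 1 of the 4 genes called at BMP2 day 5. It had 85.6 and 61.3 CPM there against 106 and 142 CPM in untreated cells, a log2 fold change of -0.75 ± 0.20 (SE, edgeR adjusted p = 0.019), and the call was lost without untreated replicate 2 or BMP2 day 5 replicate 2. POLE had 235 and 245 CPM in untreated cells, 199 and 195 at RA day 5, 121 and 151 at RA day 10 and 64.6 and 55.4 at RA day 21, and 145 and 125 CPM at BMP2 day 5, 117 and 55.4 at BMP2 day 10 and 61.8 and 40.0 at BMP2 day 21. Both day 21 groups were below the untreated pair without overlap, with a log2 fold change of -2.00 ± 0.32 (SE, edgeR adjusted p = 0.00094) for RA and -2.24 ± 0.32 (SE, edgeR adjusted p = 0.00048) for BMP2. POLE2 had 22.1 and 24.5 CPM in untreated cells, 15.4 and 19.4 at RA day 5, 8.81 and 12.5 at RA day 10 and 7.11 and 5.05 at RA day 21, and 10.4 and 7.74 CPM at BMP2 day 5, 8.44 and 2.59 at BMP2 day 10 and 2.77 and 1.81 at BMP2 day 21. Its log2 fold change was -1.94 ± 0.49 (SE, edgeR adjusted p = 0.0095) at RA day 21, lost without RA day 21 replicate 2, and -3.35 ± 0.52 (SE, edgeR adjusted p = 0.00067) at BMP2 day 21. POLE4 (ENSG00000115350) had 15.7 and 17.3 CPM in untreated cells, 13.8 and 13.9 at RA day 5, 12.4 and 11.6 at RA day 10 and 14.4 and 12.4 at RA day 21. It had 16.5 and 14 CPM at BMP2 day 5, 13.0 and 14.8 at BMP2 day 10 and 17.5 and 18.1 at BMP2 day 21. The BMP2 day 21 libraries were above both untreated libraries and the RA day 21 libraries below. POLE4 had a log2 fold change of -0.30 ± 0.18 (SE, edgeR adjusted p = 0.21) at RA day 21 and 0.11 ± 0.18 (SE, edgeR adjusted p = 0.66) at BMP2 day 21. POLE3, which also belongs to a chromatin remodelling complex, averaged 69.4% of the untreated mean at RA day 21 and 82.3% at BMP2 day 21. POLE3 had a log2 fold change of -0.53 ± 0.20 (SE, edgeR adjusted p = 0.054) at RA day 21 and -0.28 ± 0.20 (SE, edgeR adjusted p = 0.27) at BMP2 day 21. The RA value of POLE3 passed the threshold in 10 of the 22 other settings, among them DESeq2 with an adjusted p of 0.023, and the adjusted p ranged up to 0.36.

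**Figure D3:**
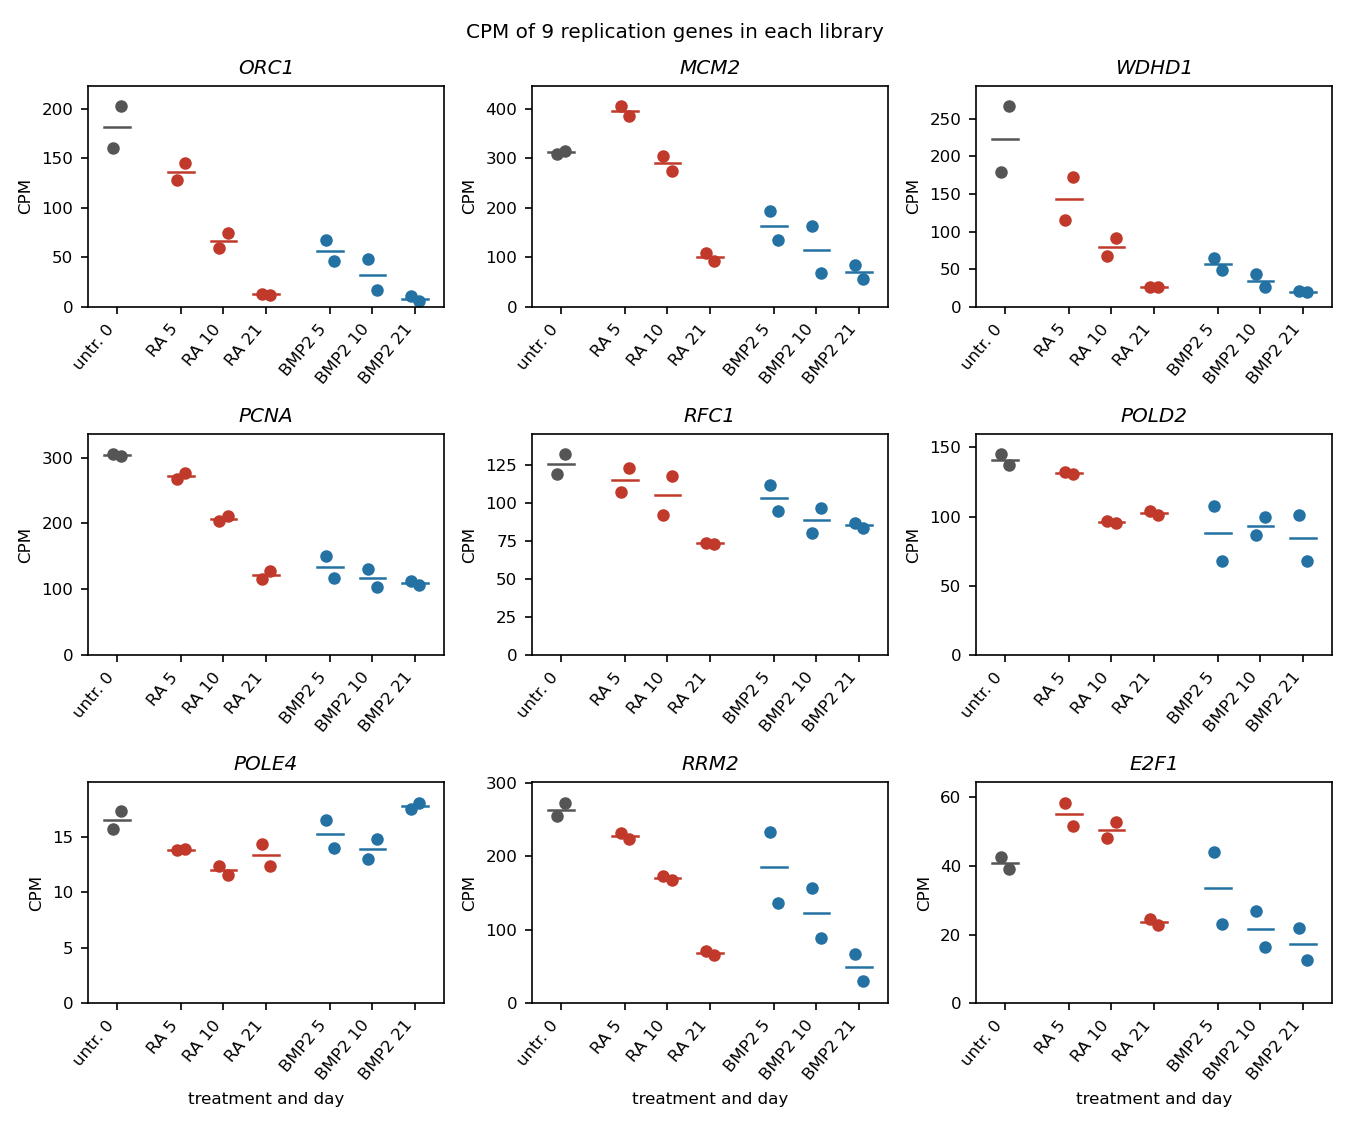
CPM (linear axis from 0) of 9 of the genes in each library, by treatment and day (untr., untreated day 0), with a circle for each library and a line at the mean of the 2. ORC1 is at 5.86 to 13.3 CPM in the 4 day 21 libraries, PCNA is at 103 to 150.1 CPM in the 6 BMP2 libraries, and POLE4 stays between 11.6 and 18.1 CPM in all 14.

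The genes for flap processing and ligation, which turn lagging strand fragments into one strand, were called lower at both day 21 groups (3 of 3 each). LIG1, the ligase of replication, had 59.5 and 62.0 CPM in untreated cells, 70.2 and 67.7 at RA day 5, 56.0 and 49.3 at RA day 10 and 24.7 and 22.4 at RA day 21. RA day 5 was above the untreated pair, and RA day 21 below it. It had 46.9 and 33.4 CPM at BMP2 day 5, 33.0 and 20.4 at BMP2 day 10 and 20.5 and 16.2 at BMP2 day 21, and its log2 fold change was -1.37 ± 0.24 (SE, edgeR adjusted p = 0.0016) at RA day 21 and -1.73 ± 0.25 (SE, edgeR adjusted p = 0.00044) at BMP2 day 21. DNA2, a nuclease and helicase that trims long flaps, had 85.5 and 73.5 CPM in untreated cells, 54.0 and 71.2 at RA day 5, 38.2 and 48.5 at RA day 10 and 19 and 16.9 at RA day 21. It had 32.4 and 30.2 CPM at BMP2 day 5, 25.8 and 14.7 at BMP2 day 10 and 11.7 and 7.68 at BMP2 day 21, below the untreated pair in every library. DNA2 had a log2 fold change of -2.14 ± 0.30 (SE, edgeR adjusted p = 0.00046) at RA day 21 and -3.03 ± 0.31 (SE, edgeR adjusted p = 0.00011) at BMP2 day 21. FEN1, the flap endonuclease, averaged 30.3% of the untreated mean at RA day 21 and 26.5% at BMP2 day 21. Of its span, 96.2% overlaps TMEM258 on the opposite strand and FADS2 on the same strand, and neither neighbour was called at day 21.

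Replication protein A coats single-stranded DNA in replication and in repair. Its 3 genes were called lower at both day 21 groups, with medians of -0.99 for RA and -1.39 for BMP2. RPA1, the large subunit, had 230.4 and 219 CPM in untreated cells, 226 and 226 at RA day 5, 166 and 162 at RA day 10 and 113 and 113 at RA day 21. Both RA day 5 libraries lay between the untreated libraries. It had 164 and 159 CPM at BMP2 day 5, 187 and 96.1 at BMP2 day 10 and 118 and 109 at BMP2 day 21, and the day 21 libraries of the 2 treatments overlapped. RPA1 had a log2 fold change of -0.99 ± 0.24 (SE, edgeR adjusted p = 0.008) at RA day 21 and -0.99 ± 0.24 (SE, edgeR adjusted p = 0.0076) at BMP2 day 21; the first was lost without either RA day 21 library and the second without BMP2 day 21 replicate 2. RPA2 had 131 and 165 CPM in untreated cells, 131 and 138 at RA day 5, 109 and 102 at RA day 10 and 73.3 and 77.3 at RA day 21. It had 82.5 and 72.8 CPM at BMP2 day 5, 86.3 and 60.9 at BMP2 day 10 and 58.2 and 54.9 at BMP2 day 21, with no overlap between the RA and the BMP2 libraries at day 5, 10 or 21. Its log2 fold change was -0.97 ± 0.18 (SE, edgeR adjusted p = 0.002) at RA day 21 and -1.39 ± 0.18 (SE, edgeR adjusted p = 0.0003) at BMP2 day 21. RPA3, the small subunit, had 71.8 and 63.0 CPM in untreated cells, 52.1 and 61.7 at RA day 5, 37.5 and 29 at RA day 10 and 30.9 and 28.1 at RA day 21, and 31.8 and 27.9 CPM at BMP2 day 5, 32.3 and 14.9 at BMP2 day 10 and 21.3 and 21.3 at BMP2 day 21. Every treated library was below the untreated pair. Its RA day 21 call, a log2 fold change of -1.19 ± 0.30 (SE, edgeR adjusted p = 0.0095), was lost without untreated replicate 1 or RA day 21 replicate 2. Of the RPA3 span 94.9% overlaps UMAD1 on the opposite strand, which had a log2 fold change of 0.04 ± 0.20 at RA day 21 and 1.06 ± 0.20 at BMP2 day 21.

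The nucleotide supply genes together were above the untreated mean at RA day 5 and below it later. The summed CPM of RRM1, RRM2 and TYMS was 116% and 108% of the untreated mean at RA day 5, 82.6% and 78.5% at RA day 10, and 32.4% and 30.9% at RA day 21. All 3 genes were called lower at both day 21 groups. RRM1, the large subunit of ribonucleotide reductase, had 267 and 281 CPM in untreated cells, 382 and 346 at RA day 5, 263 and 247 at RA day 10 and 97.8 and 96.8 at RA day 21. RA day 5 was above the untreated pair, and day 21 below it. It had 230.4 and 148 CPM at BMP2 day 5, 164 and 103 at BMP2 day 10 and 103 and 69.8 at BMP2 day 21, all below the untreated pair. RRM1 had a log2 fold change of -1.49 ± 0.27 (SE, edgeR adjusted p = 0.0017) at RA day 21 and -1.67 ± 0.27 (SE, edgeR adjusted p = 0.00085) at BMP2 day 21. RRM2, the small subunit, had 254 and 273 CPM in untreated cells, 231 and 224 at RA day 5, 173 and 167 at RA day 10 and 71.1 and 65.5 at RA day 21. It had 233 and 137 CPM at BMP2 day 5, 157 and 88.1 at BMP2 day 10 and 67.1 and 30.7 at BMP2 day 21. Every treated library was below the untreated pair, and the 2 BMP2 day 21 libraries differed by more than the 2 RA day 21 libraries. RRM2 had a log2 fold change of -1.95 ± 0.38 (SE, edgeR adjusted p = 0.0027) at RA day 21 and -2.43 ± 0.39 (SE, edgeR adjusted p = 0.0008) at BMP2 day 21. TYMS, thymidylate synthase, averaged 132% of the untreated mean at RA day 5, 42.3% at RA day 21 and 25.6% at BMP2 day 21. Of its span 25.0% overlaps ENOSF1 and TYMSOS. ENOSF1 was called lower at BMP2 days 5, 10 and 21, with a log2 fold change of -1.34 ± 0.21 at BMP2 day 21, and was not called at RA day 21. The TYMS RA day 21 call, a log2 fold change of -1.24 ± 0.31 (SE, edgeR adjusted p = 0.0085), was lost without RA day 21 replicate 2.

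The G1/S regulators had different courses. CCNE1, the cyclin E that activates CDK2 at S phase entry, had 50.8 and 55.4 CPM in untreated cells, 22.7 and 31.8 at RA day 5, 18.0 and 21.2 at RA day 10 and 9.49 and 9.63 at RA day 21. Each RA group was below the one before it, without overlap. It had 18.4 and 17.8 CPM at BMP2 day 5, 20.2 and 13.1 at BMP2 day 10 and 11.6 and 16.0 at BMP2 day 21, and the BMP2 day 10 libraries overlapped both the day 5 and the day 21 range. CCNE1 had a log2 fold change of -0.96 ± 0.25 (SE, edgeR adjusted p = 0.045) at RA day 5, where no other member was called, -2.47 ± 0.27 (SE, edgeR adjusted p = 0.00015) at RA day 21 and -1.95 ± 0.26 (SE, edgeR adjusted p = 0.00033) at BMP2 day 21. The RA day 5 call of CCNE1 was lost in 14 of 22 settings, among them without any 1 of the libraries other than the BMP2 day 10 pair. CCNE2, its paralogue, averaged 42.7% of the untreated mean at RA day 21 and 27.0% at BMP2 day 21. CCNE2 had a log2 fold change of -1.23 ± 0.57 (SE, edgeR adjusted p = 0.1) at RA day 21, which was not called, and -1.89 ± 0.58 (SE, edgeR adjusted p = 0.022) at BMP2 day 21, and the BMP2 call was lost without either untreated library or BMP2 day 21 replicate 2.

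E2F1, the transcription factor whose targets include many of these genes (ENSG00000101412), had 42.6 and 39.2 CPM in untreated cells, 58.5 and 51.8 at RA day 5, 48.3 and 52.7 at RA day 10 and 24.5 and 22.7 at RA day 21. RA day 5 and day 10 were above the untreated pair, and day 21 was below. It had 44.0 and 23.1 CPM at BMP2 day 5, 26.8 and 16.4 at BMP2 day 10 and 22.0 and 12.5 at BMP2 day 21. BMP2 day 5 replicate 1 was above the untreated pair and replicate 2 below. Its log2 fold change was -0.79 ± 0.34 (SE, edgeR adjusted p = 0.084) at RA day 21, which was not called, and -1.25 ± 0.35 (SE, edgeR adjusted p = 0.014) at BMP2 day 21. The BMP2 call was lost without untreated replicate 1 or BMP2 day 21 replicate 2, and the RA value passed in DESeq2 (adjusted p = 0.047).

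A chosen subset of 18 members covers gap filling after excision and the binding of single-stranded DNA (PCNA, RFC1 to RFC5, POLD1 to POLD4, POLE, POLE2, POLE3, POLE4, LIG1 and RPA1 to RPA3). It is not a full list of members with a role in repair. The 18 had medians closer to 0 than the other 33. At RA day 21, 14 of the 18 were called lower and 1 higher (median -1.26), and 31 of the 33 lower (median -1.99). At BMP2 day 21 the 18 gave 15 lower and 1 higher (median -1.69), and 33 of the 33 were lower (median -2.47). Of all tested genes 21.1% were called lower at RA day 21 and 22.1% at BMP2 day 21. At RA day 10, 2 of 18 and 10 of 33 were called lower, where 11.1% of all genes were, so the count among the 18 was no more than the share of all genes. At BMP2 day 5 there were 7 of 18 lower with 1 higher, and 14 of 33 lower, where 13.4% of all genes were lower. At BMP2 day 10 there were 13 of 18 lower with 1 higher, and 30 of 33 lower, where 16.4% of all genes were lower. The difference between the 2 sets was not tested. The 5 members that were not called at RA day 21 were POLD2, POLE3, POLE4, CCNE2 and E2F1, and the 2 not called at BMP2 day 21 were POLE3 and POLE4.

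Set against BMP2 at the same day, the RA cultures had more replication gene RNA at days 5 and 10. At day 5, 8 of 51 members were called higher under RA and 0 lower, where 5.97% of all genes were called higher and 6.25% lower, and the median log2 fold change of the members was 0.69. Both RA libraries were above both BMP2 libraries for 43 members at day 5, where 30.9% of all genes did so. At day 10, 7 were called higher under RA and 0 lower, where 5.11% of all genes were called higher and 5.73% lower, with a median of 0.71. The RA libraries were above the BMP2 libraries for 36 members at day 10, where 25.9% of all genes did so. At day 21, 0 members were called in either direction by edgeR, where 5.99% of all genes were called higher and 6.07% lower. Of the members 7 had an unadjusted p under 0.05, the smallest adjusted p was 0.074, and DESeq2 called 4. Both RA day 21 libraries were above both BMP2 day 21 libraries for 31 members and below for 5, where 37.1% and 33.2% of all genes did so.

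MCM2 gave 405 and 385 CPM at RA day 5 against 194 and 134 CPM at BMP2 day 5, a log2 fold change of 1.27 ± 0.36 (SE, edgeR adjusted p = 0.045). PCNA gave 267 and 277 CPM at RA day 5 against 150.1 and 117 CPM at BMP2 day 5, a log2 fold change of 1.03 ± 0.16 (SE, edgeR adjusted p = 0.0045); it was the 1 member called at day 5 in all 22 settings. WDHD1 gave 115 and 173 CPM against 64.8 and 49.5 CPM there, a log2 fold change of 1.33 ± 0.31 (SE, edgeR adjusted p = 0.022). DBF4 (1.13 ± 0.24), RFC5 (1.09 ± 0.29), DNA2 (1.00 ± 0.29), RPA2 (0.79 ± 0.18) and RRM1 (0.95 ± 0.27) were the other members called higher under RA at day 5 (log2 fold change ± SE). In all 8, both RA libraries were above both BMP2 libraries. At day 10, MCM2 gave 304 and 275 CPM under RA against 163 and 67.6 CPM under BMP2, a log2 fold change of 1.33 ± 0.36 (SE, edgeR adjusted p = 0.042). E2F1 gave 48.3 and 52.7 CPM under RA against 26.8 and 16.4 CPM under BMP2, a log2 fold change of 1.23 ± 0.35 (SE, edgeR adjusted p = 0.049). The others called at day 10 were DBF4 (1.25 ± 0.24), WDHD1 (1.19 ± 0.31), PCNA (0.82 ± 0.16), LIG1 (0.98 ± 0.24) and DNA2 (1.1 ± 0.29).

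These counts rested on few libraries. The 8 members at day 5 became 25 without either BMP2 day 10 library, 2 or 1 without BMP2 day 5 replicate 1 or 2, and 3 or 1 without RA day 5 replicate 1 or 2. They became 4 without any 1 of the RA day 10, RA day 21 or untreated libraries. The 7 members at day 10 became 39 without BMP2 day 10 replicate 1 and 2 without BMP2 day 10 replicate 2. They became 1 or 0 without RA day 10 replicate 1 or 2, 4 or 3 without RA day 5 replicate 1 or 2, 2 without either RA day 21 library and 3 without either untreated library. At day 21 the count of 0 became 7 without either BMP2 day 10 library and 1 without BMP2 day 21 replicate 1. The proliferation markers MKI67 and TOP2A were called higher under RA at day 10 (log2 fold change 1.64 ± 0.39 and 1.63 ± 0.39), and 0 of 3 proliferation markers were called at days 5 and 21. At day 5 MKI67 had 1.25 ± 0.38 (SE, edgeR adjusted p = 0.059) and TOP2A 1.33 ± 0.39 (SE, edgeR adjusted p = 0.052), near the threshold. CDK1 had 0.38 ± 0.35 (SE, edgeR adjusted p = 0.52) at day 5.

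**Figure D4:**
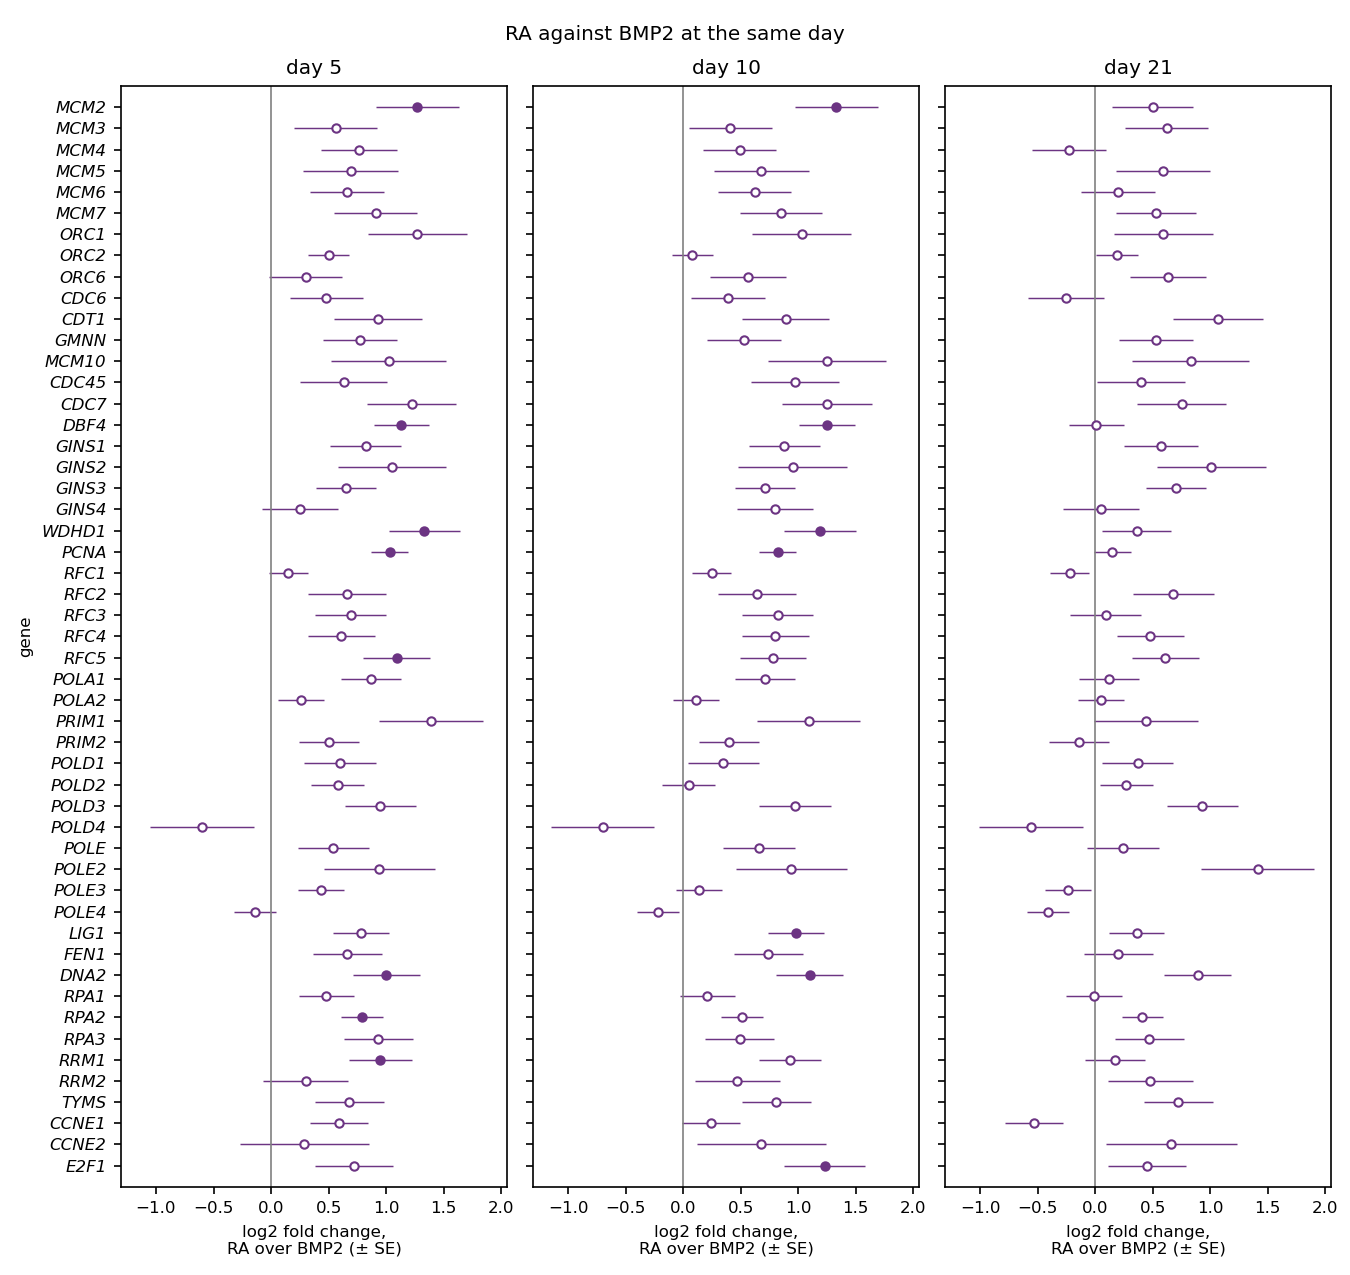
Log2 fold change of RA over BMP2 at days 5, 10 and 21 for each of the 51 genes, with the standard error as a line; filled circles were called by edgeR. Most circles lie right of 0 at days 5 and 10, with 8 and 7 filled, and at day 21 the median is 0.41 and no circle is filled.

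Within each treatment, most of the machinery went on falling between days 5 and 21. In RA cultures, 46 members were called lower at day 21 than at day 5 and 0 higher, where 14.8% of all genes were called lower and 13.9% higher, with a median of -1.58. Both RA day 21 libraries were below both RA day 5 libraries for 49 members and above for 1, where 35.8% and 41.3% of all genes did so. In BMP2 cultures, 37 were called lower and 0 higher, where 7.75% of all genes were called lower and 7.77% higher, with a median of -1.31. Both BMP2 day 21 libraries were below both BMP2 day 5 libraries for 46 members and above for 2, where 30.6% and 31.0% of all genes did so. PCNA was called lower within RA (log2 fold change -1.16 ± 0.16 with edgeR adjusted p = 0.0018), with 115 and 128 CPM at day 21 against 267 and 277 CPM at day 5. Within BMP2 it had 113 and 107 CPM at day 21 against 150.1 and 117 CPM at day 5, and was not called. ORC1 was called in both, with a log2 fold change of -3.44 ± 0.46 (SE, edgeR adjusted p = 0.0017) within RA and -2.77 ± 0.45 (SE, edgeR adjusted p = 0.011) within BMP2. CCNE1 was called within RA (log2 fold change -1.51 ± 0.26 with edgeR adjusted p = 0.0035), and within BMP2 it had 11.6 and 16.0 CPM at day 21 against 18.4 and 17.8 CPM at day 5. All 3 RPA genes were called within RA and 0 of 3 within BMP2. Whether the change between days 5 and 21 differed between the agents was not tested. The RA count became 29 or 24 without RA day 21 replicate 1 or 2. The BMP2 count became 0 or 24 without BMP2 day 5 replicate 1 or 2 and 21 or 0 without BMP2 day 21 replicate 1 or 2.

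Other genes of replication outside the 51, on a list of 59 of which 58 were measured, went the same way with more exceptions. At RA day 21, 43 of the 58 were called lower and 4 higher (median -1.12), where 21.1% of all genes were called lower and 23.4% higher. At BMP2 day 21, 48 were called lower and 3 higher (median -1.48), where 22.1% of all genes were called lower and 25.0% higher. The lowest at both was DSCC1, a subunit of the alternative clamp loader of sister chromatid cohesion, with 7.07 and 7.14 CPM at RA day 21 and 4.86 and 3.59 CPM at BMP2 day 21 against 73.6 and 70.5 CPM in untreated cells. DSCC1 had a log2 fold change of -3.34 ± 0.42 (SE, edgeR adjusted p = 0.00027) for RA and -4.09 ± 0.44 (SE, edgeR adjusted p = 0.00013) for BMP2. CCNA2, the S phase cyclin, had a log2 fold change of -2.36 ± 0.40 (SE, edgeR adjusted p = 0.0012) at RA day 21 and -3.51 ± 0.42 (SE, edgeR adjusted p = 0.0002) at BMP2 day 21. The genes called higher, named after their values were seen, were at RA day 21 RNASEH2C, a ribonuclease subunit (0.82 ± 0.22), TFDP2, an E2F partner (0.84 ± 0.20), and the pocket proteins RB1 (1.01 ± 0.24) and RBL2 (1.59 ± 0.21), which restrain E2F. At BMP2 day 21 they were CMPK1, a nucleotide kinase (1.72 ± 0.41), RB1 (0.95 ± 0.24) and RBL2 (1.5 ± 0.21). RBL1, another pocket protein on the list, went the other way. It had 13.4 and 12.2 CPM at RA day 21 and 14.4 and 7.33 CPM at BMP2 day 21, against 36.5 and 38.1 CPM in untreated cells. TFDP1, another E2F partner, was at 53.4% of the untreated mean at RA day 21 and 47.8% at BMP2 day 21. At RA day 5, 1 of the 58 was called higher, DONSON (0.82 ± 0.17), a factor of replication forks, and 0 lower. Of all genes 5.59% were called higher and 2.72% lower there. Under RA compared with BMP2, the day 5 comparison called 9 higher and 0 lower, the day 10 comparison 13 higher and 0 lower, and the day 21 comparison, where 0 of the 51 were called, 8 higher and 1 lower. Of all genes 5.97%, 5.11% and 5.99% were called higher in the day 5, day 10 and day 21 comparisons, and 6.25%, 5.73% and 6.07% lower. E2F2, a relative of E2F1, was higher under RA at all 3 days, with 9.13 and 7.81 CPM at RA day 21 against 3.16 and 1.39 CPM at BMP2 day 21 (log2 fold change 1.90 ± 0.38 with edgeR adjusted p = 0.013).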

How the data were processed

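RNA-seq of 14 NT2 libraries was analysed. The deposited counts are whole reads per gene in 1 table of 25952 genes, and the authors also deposited RPKM per library. Per the submitters' processing notes, hg19, STAR, featureCounts and DESeq2 were used; versions, roles and the use of strand are not given in the sources used here. The gene length implied by the deposited RPKM equals the whole gene span within 1% for 89.0% of the 5814 genes with at least 1000 counts and for 49 of the 51 members, so counts may include introns, and RPKM was used for this check only. Among counts of 1 to 19, 66.0% to 73.5% were even, so reads of a pair may have been counted singly. Ensembl IDs were given symbols from a gene name list (25214 IDs) and GENCODE v29 (58 IDs); 680 stayed without a symbol.

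Groups came from sample titles. Titles and descriptions number the RA day 21 replicates differently, and titles were used. DMSO at 0.1% is named as a negative control in the labels, while the day 0 cells are labelled as not treated. Genes were filtered with filterByExpr (minimum count 10), scaled by TMM and tested by edgeR 4.0.16 (quasi-likelihood, with limma 3.58.1, R 4.3.3) in 1 model of 7 groups, with 7 residual degrees of freedom and Benjamini-Hochberg adjustment over 19142 genes. The biological coefficient of variation was 0.368. Each SE was derived from the edgeR test, as the size of the log2 fold change divided by the square root of its F statistic. DESeq2 1.42.0 was an alternative. Tables and figures used Python 3.11.15, pandas 2.3.3, NumPy 2.4.6 and matplotlib 3.10.9. Values per library are given, by rule, for the members with the largest and the smallest mean change at day 21 in each functional group, those called higher than untreated, those called between RA and BMP2, and PCNA, LIG1, MCM2, RPA1, POLD1, POLE, RRM2 and E2F1. Of the other replication genes, up to 4 with the largest changes among those called could be named. Members and lists were chosen with earlier results of these data known. Replicate numbers did not pair samples (see the closing section), and the main model has no replicate term. A search of protein sequences was not run. Alternatives were other scalings, filters, DESeq2, a replicate block, subsets of libraries and leaving out each library.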

Additional observations from a re-analysis of the deposited data

Results flagged for a closer look

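Of the 51 genes, 10 differed between RA and BMP2 at the same day by the edgeR test of that difference (adjusted p under 0.05), in 15 comparisons, with the RA libraries higher in each. At day 5 the log2 fold change of RA over BMP2 was 1.27 for MCM2, 1.13 for DBF4, 1.33 for WDHD1, 1.03 for PCNA, 1.09 for RFC5, 1.00 for DNA2, 0.79 for RPA2 and 0.95 for RRM1. At day 10 it was 1.33 for MCM2, 1.25 for DBF4, 1.19 for WDHD1, 0.82 for PCNA, 0.98 for LIG1, 1.1 for DNA2 and 1.23 for E2F1. The call of PCNA at day 5 held in all 22 other settings. DBF4 lost its call in 3 of 22 settings at day 5 and in 2 of 21 at day 10, WDHD1 in 3 and 9, and PCNA at day 10 in 3. RPA2 at day 5 lost its call in 4 of 22 settings, each without 1 of the 4 libraries compared. MCM2, RFC5, DNA2 and RRM1 at day 5 lost it in 10 to 13 settings, and MCM2, LIG1, DNA2 and E2F1 at day 10 in 9 to 12. The proliferation markers summed to 948 and 1267 CPM at RA day 10 against 505 and 235 CPM at BMP2 day 10, and to 1453 and 1725 CPM at RA day 5 against 774 and 616 CPM at BMP2 day 5; their part in these differences was not tested.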

How the results depend on the processing

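The member values checked were the 272 called in the main fit and some further named values, 279 in all. Other values that were not called are not covered. Without both BMP2 day 10 libraries, 228 of them could be checked. Of the 279, 0 changed sign in any setting, which their choice by call made likely. Of the 272 called values, 117 kept the call in every setting. The number of members called moved as follows. For RA day 5 (1 called) it was 2 with a CPM filter, 3 in DESeq2, 0 with library size alone, 5 with only the 4 libraries compared, 0 with a replicate block, 2 without both BMP2 day 10 libraries and 0 to 2 without 1 library. For RA day 10 (12) it was 22 in DESeq2, 3 with library size alone, 35 with only the 4 libraries, 25 without both BMP2 day 10 libraries and 2 to 29 without 1 library. For BMP2 day 5 (22) it was 38 without both BMP2 day 10 libraries and 6 to 39 without 1 library. For BMP2 day 10 (44) it was 3 with only the 4 libraries and 28 to 46 without 1 library. For RA over BMP2 at day 5 (8) it was 13 without a low-count filter, 15 in DESeq2, 15 with only the 4 libraries, 25 without both BMP2 day 10 libraries and 1 to 25 without 1 library. At day 10 (7) it was 13 with library size alone, 11 in DESeq2, 0 with only the 4 libraries and 0 to 39 without 1 library. At day 21 (0) it was 4 in DESeq2, 3 with library size alone, 6 with only the 4 libraries, 7 without both BMP2 day 10 libraries and 0 to 7 without 1 library. Without 1 library it was 38 to 47 for RA day 21, 43 to 49 for BMP2 day 21, 24 to 46 for RA day 21 over day 5 and 0 to 41 for BMP2 day 21 over day 5. Leaving out a library or using 4 libraries leaves fewer samples to estimate the spread. The BMP2 day 10 libraries, with r = 0.918 between them, also enter the spread estimated over all 14 libraries. The part of either in these counts was not tested. Same-numbered libraries did not deviate together (21 pairs, r = -0.342 to 0.146), and the replicate block changed 5 of the 279 calls. Library size alone, against TMM, moved the median log2 fold change of all genes to 0.28 against 0.06 at RA day 10, 0.26 against 0.10 at RA day 21, 0.23 against 0.00 for RA over BMP2 at day 10 and 0.24 against 0.02 at day 21. The share of called genes that were higher became 73.5% against 53.9% at RA day 10, 69.3% against 47.2% for RA over BMP2 at day 10 and 69.8% against 49.7% at day 21. A search of protein sequences was not run.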
